A study of Mus musculus with 2 samples.

Results

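The mitochondria-rich barcodes were those cell barcodes of a sorted preparation of the mouse basolateral amygdala in which the mitochondrial genome supplied over 25% of the RNA molecules. They were chosen by measured values: more than 25% of a barcode's unique molecular identifiers (UMIs, each standing for 1 captured RNA molecule) lay in the 13 mitochondrially encoded genes, and less than 5% lay in the 4 haemoglobin genes Hba-a1, Hba-a2, Hbb-bs and Hbb-bt. This rule picked 947 of 5380 barcodes. The library of FGF21-treated mice held 471 of them among its 2455 barcodes (19.2%, exact binomial 95% interval 17.6 to 20.8), and the library of vehicle-treated mice held 476 among 2925 (16.3%, 15.0 to 17.7). They were set against the comparison barcodes of the same library, which had 500 or more UMIs in 300 or more genes and no more than 25% mitochondrial UMIs, and which numbered 1951 in the FGF21 and 2354 in the vehicle library. The 33 and 95 barcodes in neither set were mostly rich in haemoglobin. No barcode over 25% mitochondrial was left out for haemoglobin.

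The study profiled basolateral amygdala cells of adult C57BL/6 mice with the BD Rhapsody whole transcriptome single-cell assay, for cells that express KLB, the co-receptor through which the liver hormone FGF21 acts on FGF receptors. Mice received FGF21 at 1 mg/kg or vehicle, daily for 3 days, and the tissue of 3 mice was pooled for each treatment. The slices were held in actinomycin D, which blocks transcription, and digested with pronase. The suspension was sorted for tdTomato fluorescence, with Hoechst dye as the test of viability. The driver of the tdTomato reporter is not given in the sources used here. Each treatment was thus a single library of pooled animals: barcodes are not replicates, no test was made, and the 95% intervals given in brackets take in counting error and nothing else. Those of ratios are exact conditional binomial intervals, and those of shares exact Clopper-Pearson intervals. The libraries shared 12 cell index numbers, 2 of them held by mitochondria-rich barcodes in the FGF21 library and 2 in the vehicle library.

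Neurons send a selected group of their RNAs into dendrites, where the RNAs wait near synapses for local translation, while most neuronal mRNAs and all nuclear RNAs stay in or near the cell body. The best known dendritic RNAs are BC1, a short noncoding RNA of rodent neurons that represses translation, and the mRNA of Camk2a, the alpha subunit of the calcium-dependent kinase of the postsynaptic density. Mitochondria line dendrites and axons and supply the energy for synaptic transmission. The question put to these barcodes was which neuronal transcripts, of dendrite, axon or cell body, they carried and which they did not.

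The sequence of Bc1 is shown because it had the highest ratio of all dendritic RNAs in both libraries. It lies at chr7:144914470-144914637 on the plus strand of GRCm38 (GENCODE vM21, annotated as a lincRNA gene) and is 168 bases long. Capitals mark the internal A-rich stretch, positions 77 to 136 from the 5′ end, the longest window that starts and ends with A and has at least 80% A. It holds 49 A in 60 bases, with an uninterrupted run of 23.
Bc1: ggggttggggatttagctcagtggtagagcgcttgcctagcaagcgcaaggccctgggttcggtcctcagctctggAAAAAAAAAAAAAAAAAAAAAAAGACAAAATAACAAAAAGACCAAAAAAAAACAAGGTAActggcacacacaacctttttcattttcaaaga
The labels name polyadenylated RNA as the molecule assayed, and the A-rich stretch lies inside Bc1 itself. Repeats of the ID family share sequence with Bc1, and how reads that match several copies were counted is not given in the sources used here, so its level is uncertain in that respect.

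The mitochondria-rich barcodes were shallow. Their median was 580 UMIs in the FGF21 and 484.5 in the vehicle library, against 6848 and 4232 UMIs for comparison barcodes. The median mitochondrial share, which the rule fixed to be high, was 43.4% and 45.4% in mitochondria-rich barcodes, against 5.46% and 5.31% in comparison barcodes. At the edge of the rule, 33 FGF21 and 30 vehicle barcodes lay between 25% and 30% mitochondrial, and 34 and 28 lay between 20% and 25%. Outside the mitochondrial and haemoglobin genes, the mitochondria-rich barcodes held 184705 UMIs in the FGF21 and 214205 in the vehicle library, and comparison barcodes held 13319852 and 9990395. All levels below are UMIs per 1000000 of these UMIs (CPM), so that the genes used by the rule do not enter them. CPM are compared for 1 gene between sets of barcodes, never between genes.

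The 4 marker genes given with the label were high in both libraries. Bc1 had 2560 UMIs in mitochondria-rich barcodes and 1265 in the far larger sum of comparison barcodes of the FGF21 library, which made 13859.9 against 95.0 CPM, a ratio of 146 (136 to 156). In the vehicle library it had 6304 UMIs in mitochondria-rich and 966 in comparison barcodes, 29429.8 against 96.7 CPM, a ratio of 304 (284 to 326). The Bc1 level of mitochondria-rich barcodes was thus far above that of comparison barcodes in both libraries.

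Camk2a was at 1640.5 CPM in mitochondria-rich and 40.2 CPM in comparison barcodes of the FGF21 library (303 and 535 UMIs, ratio 40.8, 35.4 to 47.1). In the vehicle library it was at 2227 and 45.5 CPM (477 and 455 UMIs, ratio 48.9, 42.9 to 55.7). Kif5a, the neuronal heavy chain of kinesin-1, the motor that moves cargo along microtubules, lies on chromosome 10 at 127225696 to 127263348, minus strand. Kif5a had 469 UMIs in mitochondria-rich and 925 in comparison barcodes of the FGF21 library and 647 and 640 of the vehicle library. It was 36.6-fold (32.6 to 40.9) higher in mitochondria-rich barcodes of the FGF21 library and 47.1-fold (42.2 to 52.7) higher in those of the vehicle library. Ddn, which encodes dendrin, a protein of dendrites and synapses whose mRNA is dendritic, lies on chromosome 15 at 98803777 to 98809490, minus strand. Its 75 and 142 UMIs in mitochondria-rich barcodes of the FGF21 and vehicle libraries, against 174 and 165 in comparison barcodes, made ratios of 31.1 (23.4 to 41.0) and 40.1 (31.8 to 50.5). A wider list of 15 neuron markers had 369 UMIs in mitochondria-rich barcodes of the FGF21 library, with Slc17a6 at 0, and 635 of the vehicle library, ratios of 2.41 (2.17 to 2.68) and 5.29 (4.87 to 5.74). The label's 4 genes were known to be high when the barcodes were proposed for study, so their levels describe the barcodes and support nothing further.

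Across the transcriptome such ratios were rare. Among genes with at least 10 UMIs expected in mitochondria-rich barcodes at the pooled rate, 118 of 4637 (2.54%) were higher there by 2-fold or more in the FGF21 library, and 499 (10.8%) were lower by 2-fold or more. The vehicle library had 208 of 5110 (4.07%) such higher genes and 694 (13.6%) such lower genes. In both libraries 66 of 4389 (1.5%) were higher and 167 (3.8%) lower. The median log2 ratio of all genes tested was -0.18 in the FGF21 and -0.26 in the vehicle library.

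A list of 18 RNAs carried into dendrites, chosen with earlier results of these data known, was at 21505 CPM in mitochondria-rich and 1336 CPM in comparison barcodes of the FGF21 library, a ratio of 16.1 (15.5 to 16.7). In the vehicle library it was at 38911 and 1091 CPM, a ratio of 35.7 (34.7 to 36.7). The label's genes Bc1, Camk2a, Kif5a and Ddn are on the list, so its ratio partly restates values known when the label was given. In mitochondria-rich barcodes of the FGF21 library they held 2560, 303, 469 and 75 of the list's 3972 UMIs. In those of the vehicle library they held 6304, 477, 647 and 142 of 8335. They thus held most of the list's UMIs there. The ratio without all of them was not computed, so the list's ratio does not give the level of its other genes. Of the 18, 10 reached 10 expected UMIs in both libraries, and 8 of these 10 (Bc1, Camk2a, Kif5a, Map2, Dlg4, Ppp1r9b, Map1a and Agap2) were higher by 2-fold or more in mitochondria-rich barcodes of both, against 1.5% of all genes tested. None was lower by 2-fold or more. The median log2 ratio of the list's genes with enough UMIs was 1.16 in the FGF21 and 2.01 in the vehicle library, beside 0.96 and 1.02 for presynaptic and 0.00 and 0.67 for cell body genes. A gene far higher in mitochondria-rich barcodes reaches that number of UMIs more easily, so the count describes the 10 and not the list. Without Bc1 the ratio of the list was 6.16 in the FGF21 and 9.54 in the vehicle library. Against comparison barcodes of 500 to 1500 UMIs only, 61 in the FGF21 and 109 in the vehicle library, it was 4.20 and 25.0; these shallow barcodes had median mitochondrial shares of 16.7% and 11.7%.

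**Figure D1:**
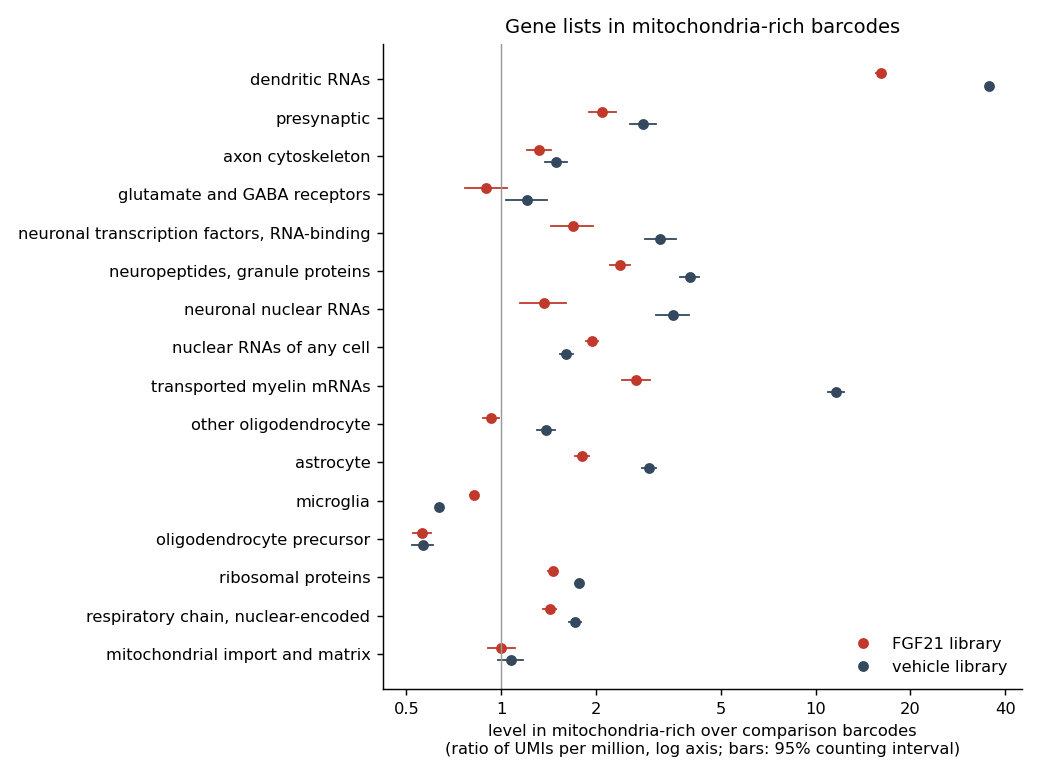
Ratio of the summed level of each gene list in mitochondria-rich over comparison barcodes, on a log axis, for the FGF21 library (red) and the vehicle library (dark); bars are exact 95% counting intervals. Dendritic RNAs, the label's genes among them, stand at 16.1 and 35.7. Receptors, axon cytoskeleton and mitochondrial import genes lie between 0.896 and 1.49, and oligodendrocyte precursor genes at 0.561 and 0.563.

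The dendritic RNAs differed widely among themselves. Nrgn, or neurogranin, a calmodulin-binding protein of spines (chromosome 9, 37544492 to 37552904, minus strand), had 100 UMIs in mitochondria-rich and 189 in comparison barcodes of the FGF21 library and 134 and 203 in the vehicle library, ratios of 38.2 (29.6 to 48.9) and 30.8 (24.6 to 38.5). Camk2n1, an inhibitor protein of the same kinase as Camk2a encodes (chromosome 4, 138454314 to 138460123, plus strand), is not on the list and was followed after its values were seen: 2366 against 319 CPM in the FGF21 and 3095 against 303 CPM in the vehicle library, ratios of 7.42 (6.70 to 8.18) and 10.2 (9.37 to 11.1).

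Scaffold and signalling proteins of the postsynaptic density differed in depth as well as in ratio. Shank1, a large scaffold whose mRNA is dendritic, had 29 and 30 UMIs in mitochondria-rich barcodes of the FGF21 and vehicle libraries and ratios of 5.08 (3.36 to 7.40) and 8.97 (5.86 to 13.3). Dlgap3, which links Shank proteins to PSD-95, had only 8 and 20 UMIs, with ratios of 6.20 (2.60 to 12.7) and 17.6 (9.97 to 29.9), and Dlg4, which encodes PSD-95, had ratios of 2.12 (1.40 to 3.09) and 4.70 (3.54 to 6.16). The interval of each of these 3 genes lay above 1 in both libraries. Psd, an exchange factor for the GTPase ARF6, had ratios of 2.88 (1.69 to 4.61) and 10.6 (7.43 to 15.0), and Agap2, a GTPase-activating protein for ARF proteins, 2.27 (1.61 to 3.10) and 3.46 (2.55 to 4.60). Shank3 had 7 and 10 UMIs and Arc, the activity-induced gene whose mRNA moves to active synapses, had 6 and 5, too few for a narrow ratio: 1.40 to 7.52 and 1.85 to 7.53 for Shank3, 1.93 to 12.3 and 4.18 to 41.6 for Arc.

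Of the cytoskeletal and spine proteins, Map1a, a microtubule-associated protein of mature dendrites, was at 444 against 135 CPM in the FGF21 and 467 against 81.8 CPM in the vehicle library, ratios of 3.30 (2.61 to 4.12) and 5.71 (4.59 to 7.03). Map2, the usual stain for dendrites and also a dendritic mRNA, had ratios of 2.07 (1.69 to 2.51) and 2.78 (2.31 to 3.34), and Ppp1r9b, the spine protein spinophilin, 2.21 (1.76 to 2.75) and 2.93 (2.44 to 3.51). Their ratios were far under that of Camk2a but above 1 in both libraries. Cyfip2, a part of the WAVE actin regulator, had 0.828 (0.497 to 1.30) and 1.62 (1.10 to 2.31), and Itpka, a spine kinase, had 0 and 1 UMIs in mitochondria-rich barcodes.

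The other kinesin-1 heavy chains were followed after their values were seen. Kif5c, which like Kif5a is neuronal, had 80 UMIs in mitochondria-rich and 358 in comparison barcodes of the FGF21 library and 122 and 237 in the vehicle library, ratios of 16.1 (12.5 to 20.6) and 24.0 (19.1 to 30.0). Kif5b, the heavy chain found in most cell types, had ratios of 4.14 (3.50 to 4.85) and 3.92 (3.37 to 4.53). The neuronal chains thus stood above the general one in both libraries.

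The presynaptic list was 2.10-fold (1.9 to 2.31) higher in mitochondria-rich barcodes of the FGF21 and 2.83-fold (2.58 to 3.11) higher in those of the vehicle library, and of its 6 genes that could be compared in both libraries 1, Syn2, was higher by 2-fold or more in both, beside 1.5% of all genes tested.

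Cplx2, or complexin-2, which clamps vesicle fusion, had 43 UMIs in mitochondria-rich and 345 in comparison barcodes of the FGF21 library and 89 and 222 in the vehicle library, ratios of 8.99 (6.39 to 12.4) and 18.7 (14.5 to 24.0). Slc17a7, the vesicular glutamate transporter of excitatory neurons of cortex and basolateral amygdala, had few UMIs but a high ratio: 19 and 35 UMIs (39.1, 21.2 to 70.3) in the FGF21 and 29 and 46 UMIs (29.4, 17.8 to 47.8) in the vehicle library. Snap25, a membrane fusion protein that serves as a general neuron marker, had ratios of 4.33 (3.12 to 5.88) and 5.29 (3.70 to 7.38). The synapsin Syn2 had 2.38 (1.69 to 3.27) and 2.58 (1.76 to 3.67), and the vesicle protein Vamp2 1.98 (1.58 to 2.46) and 2.23 (1.77 to 2.78). Sv2a, a vesicle glycoprotein, did not differ beyond counting error, at 0.987 (0.682 to 1.38) and 0.834 (0.500 to 1.31).

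Of the axonal cytoskeleton list, which as a whole had ratios of 1.32 (1.21 to 1.44) and 1.49 (1.37 to 1.62), 2 of 7 genes compared in both libraries, Gap43 and Map1b, were higher by 2-fold or more in both, beside 1.5% of all genes tested. Gap43, a growth cone protein whose mRNA is carried into axons, was at 401 against 97.1 CPM in the FGF21 and 331 against 54.2 CPM in the vehicle library, ratios of 4.12 (3.22 to 5.21) and 6.12 (4.71 to 7.85). Map1b, a microtubule-associated protein of growing axons, had ratios of 2.38 (1.80 to 3.10) and 3.08 (2.38 to 3.93). Nefl, the light neurofilament subunit, had 22 and 51 UMIs in the FGF21 and 27 and 29 in the vehicle library, ratios of 31.1 (18.0 to 52.2) and 43.4 (24.7 to 76.0). In contrast Mapt, the axonal protein tau, had 1.11 (0.854 to 1.42) and 1.80 (1.44 to 2.23), and Basp1, a membrane protein of growth cones that microglia-like barcodes also held at 1285 and 1248 CPM, had ratios under 1, 0.834 (0.702 to 0.984) and 0.766 (0.652 to 0.894).

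Receptor subunits of the postsynaptic membrane, which are made on the endoplasmic reticulum, showed little difference as a list. Glutamate and GABA receptor genes were at 931 against 1039 CPM in the FGF21 (ratio 0.896, 0.766 to 1.04) and 878 against 727 CPM in the vehicle library (ratio 1.21, 1.04 to 1.40). Of 4 genes compared in both libraries none was 2-fold apart in both, beside 1.5% of all genes tested that were higher and 3.8% that were lower. The AMPA receptor subunits diverged: Gria1 had 21 and 19 UMIs and ratios of 3.33 (2.04 to 5.15) and 4.39 (2.59 to 7.03), Gria2 ratios of 0.862 (0.687 to 1.07) and 1.12 (0.903 to 1.38), and Gria3 ratios of 0.533 (0.310 to 0.855) and 0.634 (0.361 to 1.03).

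RNAs of the neuronal cell body were present, at ratios far under those of the dendritic list, which rest largely on the label's genes. The list of neuronal transcription factors and RNA-binding proteins together with neuronal nuclear RNAs had 321 UMIs in mitochondria-rich barcodes and a ratio of 1.52 (1.36 to 1.70) in the FGF21 library, and 628 UMIs and a ratio of 3.35 (3.08 to 3.63) in the vehicle library. Of 6 such genes compared in both libraries, none was higher and 1, Elavl4, was lower by 2-fold or more in both, beside 1.5% and 3.8% of all genes tested, so counts this small say little about the list. With all UMIs as the denominator, mitochondrial ones included, the FGF21 ratio was 0.869, below 1, and the vehicle ratio 1.96; that of the dendritic list stayed above 1, at 9.18 and 20.9.

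Single members of the cell body list ranged from high to low. Celf4, an RNA-binding protein of excitatory neurons, stood apart with 63 UMIs in mitochondria-rich and 556 in comparison barcodes of the FGF21 and 163 and 334 of the vehicle library, ratios of 8.17 (6.19 to 10.6) and 22.8 (18.8 to 27.5). Myt1l, a transcription factor that keeps neuronal identity, had 19 and 33 UMIs and ratios of 3.10 (1.85 to 4.90) and 6.61 (4.44 to 9.54). Meg3, a nuclear long noncoding RNA abundant in neurons, had ratios of 1.44 (1.16 to 1.76) and 4.60 (4.01 to 5.25), and Snhg11, another, 1.25 (0.882 to 1.72) and 1.95 (1.43 to 2.60). Nova1, a splicing factor, had 1.00 (0.705 to 1.39) and 1.59 (1.18 to 2.09), and Elavl4, a neuronal RNA-binding protein, was lower in mitochondria-rich barcodes with 6 and 3 UMIs and ratios of 0.391 (0.143 to 0.854) and 0.277 (0.0568 to 0.813).

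Neuropeptide and secretory granule genes, made at the cell body, were 2.39-fold (2.22 to 2.57) higher in the FGF21 and 3.98-fold (3.71 to 4.25) higher in the vehicle library, and 1 of 4 genes compared in both was higher by 2-fold or more in both, beside 1.5% of all genes tested. That gene was Cpe, carboxypeptidase E, which trims peptide hormones, with 495 and 537 UMIs and ratios of 3.87 (3.53 to 4.23) and 6.89 (6.28 to 7.55). Astrocytes make it too. Pcsk1n, an inhibitor of a prohormone convertase, had ratios of 1.71 (1.43 to 2.03) and 3.07 (2.68 to 3.50). The peptides themselves were sparse: Sst, or somatostatin, had 2 and 5 UMIs, Npy 1 and 2, Cck 2 and 10, and Vip, Pdyn and Adcyap1 had 0 in mitochondria-rich barcodes of both libraries.

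**Figure D2:**
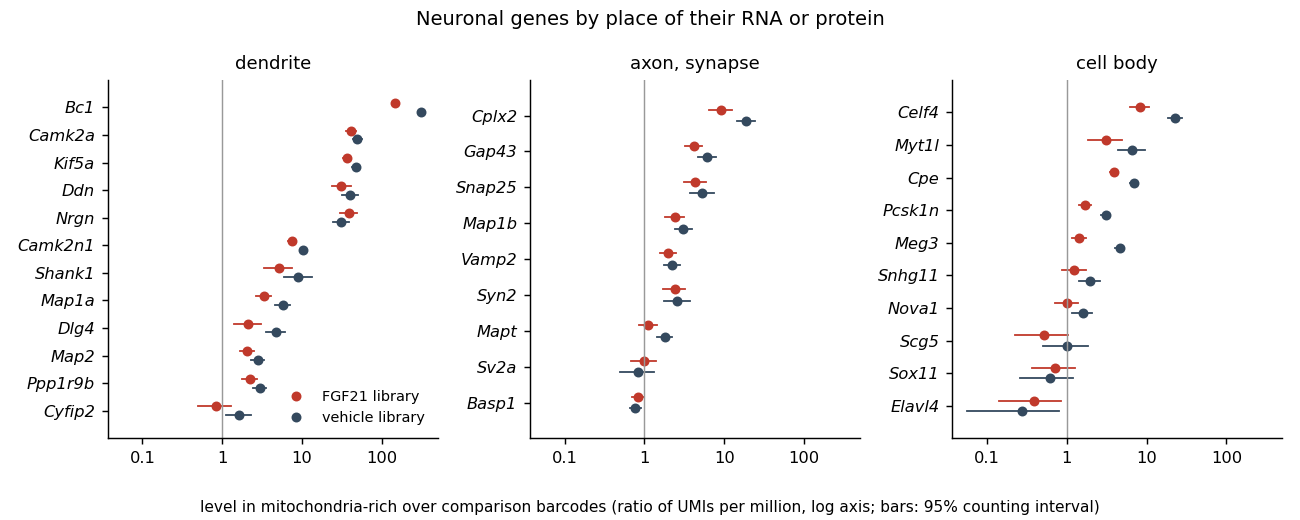
Ratio of the level of single neuronal genes in mitochondria-rich over comparison barcodes, on log axes, for the FGF21 library (red) and the vehicle library (dark); bars are exact 95% counting intervals and the grey line marks 1. The dendrite panel runs from Bc1 at 146 and 304 down to Cyfip2 at 0.828 and 1.62, whereas the cell body panel runs from Celf4 at 8.17 and 22.8 to Elavl4 at 0.391 and 0.277; Camk2n1 was added after its values were seen.

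The share of the dendritic list within summed neuronal lists was compared as well. Astrocytes also make Cpe, a gene of the granule list, so the share is not a measure of RNA location alone. Of the UMIs of the dendritic, transcription factor, granule and neuronal nuclear lists together, the dendritic list held 78.5% (77.3 to 79.6) in mitochondria-rich and 31.7% (31.3 to 32.1) in comparison barcodes of the FGF21 library. In the vehicle library it held 84.3% (83.6 to 85.0) and 35.7% (35.2 to 36.3). Without Bc1 the shares were 56.4% against 30.1% in the FGF21 and 56.7% against 33.6% in the vehicle library, so Bc1 supplied part of the difference. Of the list's remaining UMIs in mitochondria-rich barcodes, the label's Camk2a, Kif5a and Ddn held 303, 469 and 75 of 1412 in the FGF21 library. In the vehicle library they held 477, 647 and 142 of 2031. Most of the list's remaining UMIs were thus those of the label's genes. The share without all of the label's genes was not computed, so the difference in share is not shown for the rest of the list. The summed lists leave out presynaptic, axon and receptor genes. With those 3 lists added, a denominator chosen after the values were seen, the dendritic share was 64.3% in mitochondria-rich and 15.8% in comparison barcodes of the FGF21 library and 74.7% and 16.9% of the vehicle library. Without Bc1 it was 39.1% and 14.8% in the FGF21 and 41.8% and 15.6% in the vehicle library.

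The nearest set to whole neurons was a small neuron-like cluster of comparison barcodes, 20 in the FGF21 and 16 in the vehicle library, with median depths of 1909 and 1231 UMIs and median mitochondrial shares of 13.1% and 7.52%. Its leading genes included Nefl, Igfbpl1, Islr2, Bc1, Synpr and Stmn2. The cluster was named by its score on the neuron markers, which include Snap25, Meg3, Snhg11, Celf4, Syt1, Syn1, Gad1 and Gad2. High levels of these genes in it were thus partly fixed by the naming. The cell body and presynaptic lists share some of these markers, so their contrasts with this cluster were partly fixed too. Dcx, a microtubule protein of young neurons, was at 54.1 CPM in mitochondria-rich and 279 CPM in neuron-like barcodes of the FGF21 library and at 18.7 and 432 CPM in the vehicle library, and Gad2, an enzyme that makes GABA, at 27.1 and 383 and at 42.0 and 318 CPM. Gad1, another such enzyme, was at 43.3 and 683 CPM in the FGF21 (ratio 0.0634, 0.0263 to 0.132) and 42.0 and 91.0 CPM in the vehicle library (ratio 0.462, 0.129 to 2.05). Slc17a7, the glutamatergic marker, had 0 UMIs in the neuron-like barcodes of both libraries. In this contrast, RNA location and neuron type cannot be told apart.

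Set against these neuron-like barcodes, the dendritic list with the label's genes in it was higher in mitochondria-rich barcodes. Its ratios were 4.55 (4.13 to 5.02) in the FGF21 and 6.24 (5.53 to 7.07) in the vehicle library. Without Bc1 these ratios were 2.25 (2.00 to 2.55) and 2.54 (2.17 to 3.00). The label's Camk2a, Kif5a and Ddn then held 303, 469 and 75 of 1412 UMIs in mitochondria-rich barcodes of the FGF21 library. In its neuron-like barcodes they held 47, 24 and 10 of 328. In the vehicle library they held 477, 647 and 142 of 2031 and, in neuron-like barcodes, 4, 3 and 2 of 164. The label's genes thus held most of these UMIs in mitochondria-rich barcodes but only a minor part in neuron-like barcodes. The higher ratio of the list therefore rested largely on the label's genes. The ratio without all of them was not computed, and the rest of the list is not shown to be higher than in neuron-like barcodes. The cell body list was lower, with ratios of 0.145 (0.128 to 0.164) and 0.338 (0.297 to 0.385), and so was the presynaptic list, with 0.303 (0.268 to 0.343) and 0.427 (0.364 to 0.503). Bc1 was 10.4-fold (8.70 to 12.5) higher in the FGF21 and 11.8-fold (9.74 to 14.3) higher in the vehicle library, and Kif5a 10.2-fold (6.79 to 16.1) and 44.3-fold (15.1 to 215). Camk2a was at 1640.5 CPM in mitochondria-rich and 486 CPM in neuron-like barcodes of the FGF21 and at 2227 and 91.0 CPM of the vehicle library. Map2 did not differ beyond counting error, with ratios of 0.901 (0.651 to 1.26) and 0.802 (0.540 to 1.22), and Cyfip2 was lower in mitochondria-rich barcodes, with ratios of 0.398 (0.207 to 0.752) and 0.365 (0.199 to 0.690). Nrgn had ratios of 2.49 (1.55 to 4.20) in the FGF21 and 0.482 (0.351 to 0.670) in the vehicle library. Snap25 was lower: it was at 238 CPM in mitochondria-rich and 931 CPM in neuron-like barcodes of the FGF21 and at 182 and 1069 CPM of the vehicle library. Meg3 was at 504 and 5505 CPM in the FGF21 and 1125 and 2593 CPM in the vehicle library. The dendritic share of neuronal UMIs in neuron-like barcodes was 21.8% (20.0 to 23.6) and 35.4% (32.0 to 38.8), far under that of mitochondria-rich barcodes. In microglia-like barcodes it was 40.3% (39.3 to 41.2) and 44.7% (43.7 to 45.8), above that of neuron-like barcodes. A higher share is thus not in itself a mark of neuronal RNA.

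**Figure D3:**
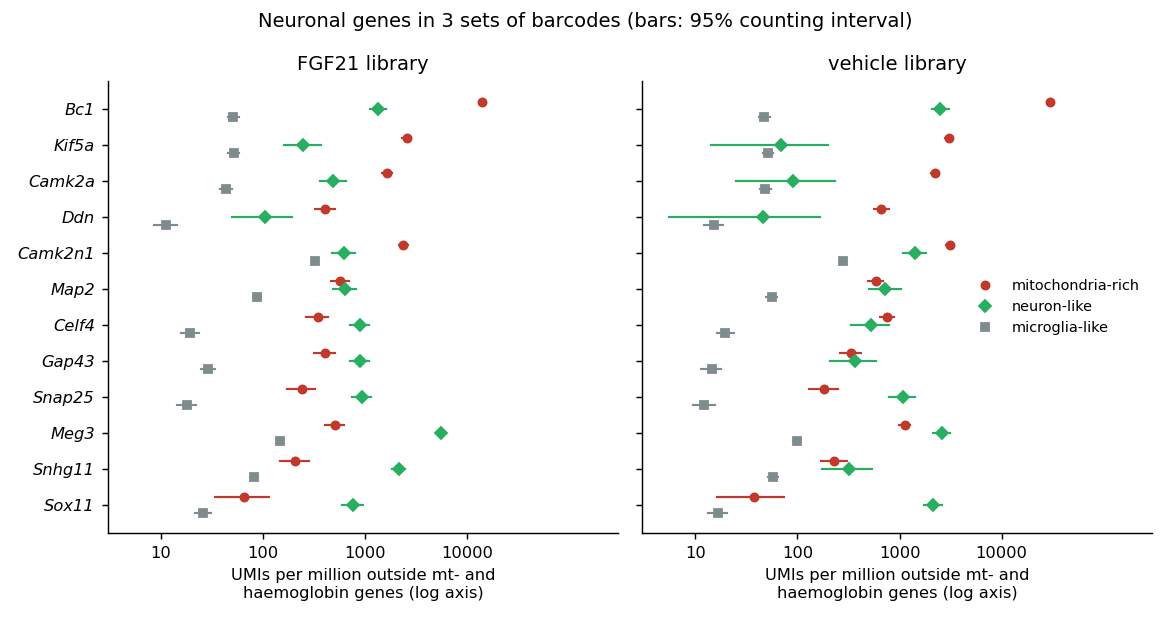
Level of single neuronal genes in mitochondria-rich (red circles), neuron-like (green diamonds) and microglia-like barcodes (grey squares), in CPM on a log axis, FGF21 library left and vehicle library right; bars are exact 95% counting intervals. Bc1, Kif5a, Camk2a, Ddn and Camk2n1 are highest in mitochondria-rich barcodes, whereas Snap25, Meg3 and Sox11 are highest in neuron-like barcodes of both libraries. Snap25, Meg3, Celf4 and Snhg11 are among the markers that named the neuron-like cluster.

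These RNAs were not detected in every mitochondria-rich barcode, and at this depth 0 UMIs do not show that a barcode lacked one. At least 1 Bc1 UMI was found in 57.7% (53.1 to 62.3) of mitochondria-rich barcodes of the FGF21 and 56.1% (51.5 to 60.6) of the vehicle library, so 199 and 209 had 0. At least 10 Bc1 UMIs were found in 120 and 131. The highest single barcode had 31 Bc1 UMIs in the FGF21 and 180 in the vehicle library, and the 5 highest held 5.70% and 12.2% of all Bc1 UMIs of mitochondria-rich barcodes. The signal was thus spread over many barcodes. Kif5a had a UMI in 39.9% and 35.1%, Camk2a in 25.9% and 29.6%, and Ddn in 10.4% and 15.8%.

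Microglia-like barcodes, 887 in the FGF21 and 1407 in the vehicle library, should lack neuronal RNA. They came from 2 clusters that followed the libraries, 1 with 863 FGF21 and 11 vehicle barcodes and 1 with 24 and 1396. At median depths of 5706 and 3957 UMIs outside mitochondrial and haemoglobin genes, against 315 and 252 in mitochondria-rich barcodes, 21.5% and 15.0% of them had a Bc1 UMI. With every barcode thinned to 200 such UMIs, Bc1 was found in 61.2% (55.9 to 66.4) of 348 mitochondria-rich and 1.47% (0.783 to 2.49) of microglia-like barcodes of the FGF21 library, 123 shallower mitochondria-rich barcodes being left out. In the vehicle library it was found in 53.5% (47.5 to 59.5) of 282 mitochondria-rich and 0.711% (0.341 to 1.30) of microglia-like barcodes, with 194 left out. The thinned Bc1 shares of mitochondria-rich barcodes lay far above this level. Thinning takes away most UMIs of the deep microglia-like barcodes, any stray RNA included, and a smaller part of those of the shallow mitochondria-rich ones. The thinned level is thus not a measure of stray RNA in a shallow barcode. The thinned shares in mitochondria-rich and microglia-like barcodes were 36.5% and 0.676% for Kif5a in the FGF21 and 26.2% and 1.28% in the vehicle library, and 22.7% and 1.24% for Camk2a in the FGF21 and 21.3% and 0.853% in the vehicle library. Unthinned, 24.9% and 17.2% of microglia-like barcodes of the FGF21 and vehicle libraries had a Kif5a UMI and 20.5% and 15.4% a Camk2a UMI. The unthinned shares of mitochondria-rich barcodes were nearer to these, at 39.9% and 35.1% for Kif5a and 25.9% and 29.6% for Camk2a.

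The dendritic level did not simply follow the mitochondrial share. In the FGF21 library the dendritic list was at 1347 CPM in barcodes of at most 5% mitochondrial UMIs, 1601 at 15 to 20%, 4413 at 20 to 25%, 12265 at 25 to 30%, 30575.5 at 30 to 40%, 26859 at 40 to 50%, 8342 at 50 to 60% and 3557 above 60%. In the vehicle library the same bins held 1073, 1132, 2372, 8206, 38105, 50429.9, 27917 and 14790.4 CPM. The level was thus highest between 30% and 50% in both libraries and lower on either side. Barcodes just outside the rule, at 20 to 25%, already stood above those under 20%. Malat1, a nuclear RNA of nearly all cells, was at 11809, 6429, 10832.5, 21126 and 11947 CPM in the 5 bins from 25% upward of the FGF21 library and at 14150, 7914, 5823, 13299 and 11116 CPM of the vehicle library, so its lowest bin was 30 to 40% in the FGF21 and 40 to 50% in the vehicle library. Meg3 was at 646, 436, 519, 642 and 410.4 CPM in these bins of the FGF21 and 517, 1242, 1388, 305 and 471 CPM of the vehicle library, a different order from that of Malat1 in each library. The median barcode above 60% had only 147.5 and 80 UMIs outside mitochondrial and haemoglobin genes.

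**Figure D4:**
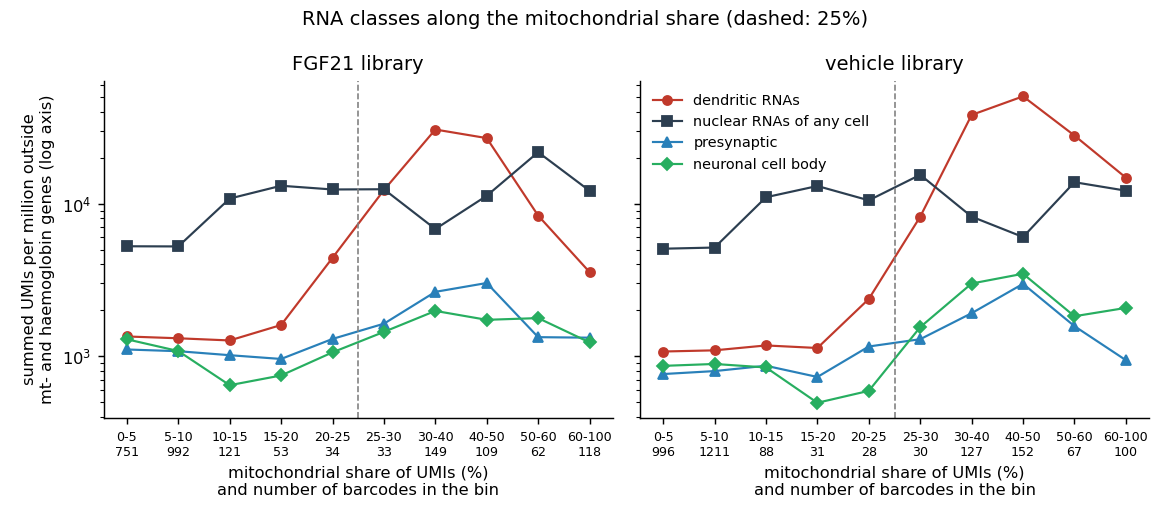
Summed level of 4 gene lists in barcodes binned by their mitochondrial share, in CPM on a log axis, FGF21 library left and vehicle library right; numbers under each bin count its barcodes and the dashed line marks 25%. Dendritic RNAs peak at 30575.5 CPM at 30 to 40% in the FGF21 and 50429.9 CPM at 40 to 50% in the vehicle library, while presynaptic and cell body lists reach at most 3469 CPM.

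Clustering of the mitochondria-rich barcodes alone, without mitochondrial and haemoglobin genes, gave 2 sets that both libraries shared almost evenly. The larger, with 289 FGF21 and 293 vehicle barcodes, was led by Celf4, Ddn, Gap43, Ttr, Kif5c, Camk2a, Rps7, Lrrc17, Nrgn and Kif5a. The smaller, with 182 and 183, was led by Chd7, Malat1, Sez6l2, Cald1, Luc7l3, Neat1, Rbm25, Chd2, Rrbp1 and Ppp1r12a. As the clusters were made on these genes, the values that follow are descriptions. The dendritic list was at 35031 CPM in the Camk2a-rich and 5377 CPM in the Malat1-rich set of the FGF21 library, and at 53940 and 18734 CPM in the vehicle library. Malat1 was at 3205 and 19038 CPM in the FGF21 and 3421 and 14523 CPM in the vehicle library.

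Luc7l3, a leading gene of the Malat1-rich set, was at 299 CPM in the Camk2a-rich and 1507 CPM in the Malat1-rich set of the FGF21 library and at 562 and 1728 CPM in the vehicle library. Cpe and the astrocyte glutamate transporter Slc1a2 went with the dendritic RNAs, Slc1a2 at 5455 and 2053 CPM in the FGF21 and 4863 and 1772 CPM in the vehicle library. The astrocyte list as a whole was 2.03 (1.82 to 2.28) and 2.14 (1.91 to 2.40) times as high in the Camk2a-rich as in the Malat1-rich set. Ribosomal protein genes were 1.39 (1.30 to 1.48) and 1.52 (1.43 to 1.62) times as high in the Camk2a-rich as in the Malat1-rich set, and microglia genes 0.776 (0.729 to 0.826) and 0.791 (0.750 to 0.835) times. The median mitochondrial share was 41.1% in the Camk2a-rich and 50.5% in the Malat1-rich set of the FGF21 library and 45.8% and 44.3% in the vehicle library, so it did not order the sets the same way in both.

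**Figure D5:**
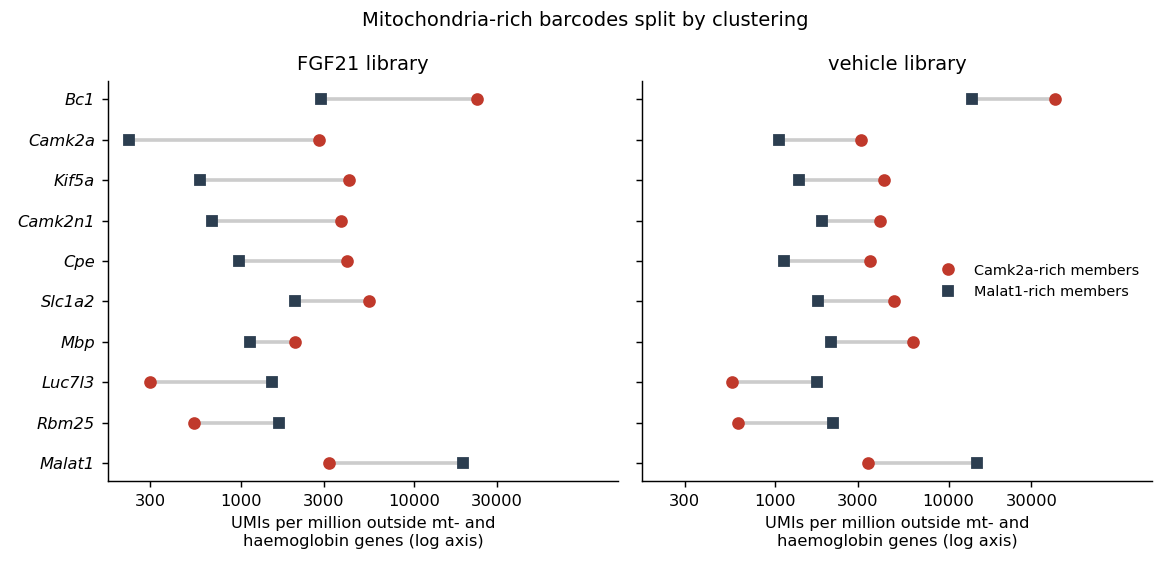
Level of single genes in the Camk2a-rich (red circles) and Malat1-rich (dark squares) sets of mitochondria-rich barcodes, in CPM on a log axis, FGF21 library left and vehicle library right. Bc1, Camk2a, Kif5a, Camk2n1, Cpe, Slc1a2 and Mbp are higher in the Camk2a-rich set and Luc7l3, Rbm25 and Malat1 in the Malat1-rich set of both libraries; the sets were clustered on such genes.

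When barcodes were split by Bc1 alone, Camk2a and Kif5a again lay on the side away from Malat1. Bc1 was itself open to the clustering, and how far both splits overlap was not tested. Camk2a was 12.5-fold apart between the clustered sets and 14.6-fold apart by Bc1 in the FGF21 library. In the vehicle library it was 2.96-fold and 14.3-fold apart. After thinning to 200 UMIs, 213 FGF21 mitochondria-rich barcodes had a Bc1 UMI and 135 had none, and 151 and 131 did in the vehicle library. Camk2a was at 3203 CPM with and 219 CPM without Bc1 in the FGF21 library and at 3166 and 221 CPM in the vehicle library. Kif5a was at 4816 and 341 CPM in the FGF21 and 4174 and 205 CPM in the vehicle library. Camk2a and Kif5a thus lay mostly in barcodes with Bc1, but other RNAs were also higher there. With over without Bc1, Snap25 had ratios of 8.99 (3.24 to 34.7) and 5.41 (1.70 to 27.6). The presynaptic list had 2.31 (1.85 to 2.90) and 3.10 (2.36 to 4.13). Among glial genes, Mbp had 2.50 (1.92 to 3.29) and 7.86 (5.92 to 10.6) and Slc1a2 3.53 (2.93 to 4.28) and 1.95 (1.61 to 2.37). The microglia list was lower, at 0.728 and 0.773. The rest of the dendritic list was 6.49 (5.52 to 7.66) and 6.34 (5.30 to 7.64) times as high with as without Bc1, the cell body list 1.73 (1.35 to 2.22) and 2.10 (1.70 to 2.61) times. Malat1 had ratios of 0.249 (0.221 to 0.279) and 0.159 (0.142 to 0.179). Meg3, the neuronal nuclear RNA, had 0.876 (0.545 to 1.40) in the FGF21 and 1.94 (1.39 to 2.75) in the vehicle library.

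RNA of glia made up a large part of the mitochondria-rich barcodes as well, and its share in the neuronal results was not tested. All 12 microglia markers had UMIs in mitochondria-rich barcodes of both libraries, with a summed level of 21521 CPM against 26197 CPM in comparison barcodes of the FGF21 library and 25144 against 39521 CPM in the vehicle library, ratios of 0.821 (0.796 to 0.848) and 0.636 (0.619 to 0.654). Of the 12, P2ry12 and Siglech were lower by 2-fold or more in both libraries, beside 3.8% of all genes tested. P2ry12, a purine receptor, had ratios of 0.397 (0.331 to 0.471) and 0.378 (0.334 to 0.427) and Siglech, a lectin, 0.390 (0.295 to 0.507) and 0.310 (0.247 to 0.384), while C1qb, a complement subunit, had 1.17 (1.08 to 1.27) and 0.870 (0.807 to 0.937). Oligodendrocyte precursor markers, all 12 with UMIs, were lower, with ratios of 0.561 (0.524 to 0.599) and 0.563 (0.522 to 0.607). Astrocyte markers, all 12 with UMIs, were at 7883 against 4366 CPM in the FGF21 and 7297 against 2468 CPM in the vehicle library, ratios of 1.81 (1.71 to 1.9) and 2.96 (2.81 to 3.11).

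Within oligodendrocyte and astrocyte RNA, single messages also differed in ratio. Mbp and Mobp encode myelin proteins, and their mRNAs are carried out along oligodendrocyte processes to the myelin. Together they were at 2225 CPM in mitochondria-rich and 828 CPM in comparison barcodes of the FGF21 library and at 6358 and 547 CPM of the vehicle library, ratios of 2.69 (2.43 to 2.97) and 11.6 (10.9 to 12.3). The 11 other oligodendrocyte markers had ratios of 0.929 (0.874 to 0.987) and 1.39 (1.31 to 1.48), so the transported messages were high beside them. Mbp had 300 UMIs in mitochondria-rich barcodes of the FGF21 and 952 of the vehicle library and ratios of 2.96 (2.63 to 3.32) and 11.1 (10.4 to 11.9). Mobp (chromosome 9, 120149707 to 120181484, plus strand) had 111 and 410 UMIs and ratios of 2.16 (1.77 to 2.60) and 12.9 (11.6 to 14.4). Mag, among the other markers, had 1.73 (1.42 to 2.09) and 1.97 (1.52 to 2.52), near Mobp in the FGF21 library only. In the Camk2a-rich over the Malat1-rich set, Mobp had ratios of 0.766 (0.518 to 1.13) and 2.31 (1.84 to 2.92).

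Among astrocyte genes, Slc1a2, the main glutamate transporter, whose mRNA is also found in astrocyte processes, was at 3904 against 1616 CPM in the FGF21 and 3543 against 929 CPM in the vehicle library, ratios of 2.42 (2.24 to 2.60) and 3.81 (3.54 to 4.11). Aldoc, the aldolase of astrocytes, had 2.45 (2.14 to 2.81) and 6.09 (5.36 to 6.91). Slc1a3, the other glutamate transporter of astrocytes, had 0.969 (0.831 to 1.12) and 1.53 (1.33 to 1.75), and Gja1, the gap junction protein connexin 43, 1.13 (0.863 to 1.46) and 1.05 (0.744 to 1.45). Slc1a2 and Aldoc were the 2 of 9 astrocyte genes compared in both libraries that were higher by 2-fold or more in both, beside 1.5% of all genes tested. Gfap and Aldh1l1 had under 10 expected UMIs in both libraries and ratios as high. Gfap had 29 and 22 UMIs and ratios of 5.11 (3.38 to 7.46) and 4.29 (2.64 to 6.65). Aldh1l1 had 15 and 19 UMIs and ratios of 2.48 (1.37 to 4.13) and 6.28 (3.67 to 10.2).

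Vascular and barrier markers were sparse. Pericyte and smooth muscle markers had 74 and 416 UMIs in mitochondria-rich barcodes of the FGF21 and vehicle libraries, with ratios of 0.762 (0.598 to 0.958) and 0.890 (0.806 to 0.981). Endothelial markers had 83 and 49 UMIs, and 41.0% of those in the FGF21 library lay in a single barcode. Choroid plexus markers had a ratio of 6.14 in the FGF21 library with a single barcode of 7892 UMIs that held 983 of the 1172 UMIs of Ttr, the thyroid hormone carrier of choroid plexus. The other 470 mitochondria-rich barcodes held 189 Ttr UMIs. Ependymal, fibroblast, border macrophage and leukocyte markers each had at most 21 UMIs in mitochondria-rich barcodes of a library. Tagln, of smooth muscle, Igf2 and Lum, of fibroblasts, and the lymphocyte genes Cd3g, Ms4a1 and Nkg7 were at 0 in both. Haemoglobin genes, which the rule used, were at 2555 and 5686 CPM.

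The mitochondrial RNA itself, chosen for its amount, kept nearly the same make-up as in comparison barcodes. Among all mitochondrial UMIs, mt-Co1, a subunit of cytochrome c oxidase, made up 19.9% in mitochondria-rich and 19.7% in comparison barcodes of the FGF21 library and 19.2% and 19.4% of the vehicle library. The ratio of these shares ranged over the 13 genes from 0.811 (mt-Nd3) to 1.25 (mt-Nd4l) in the FGF21 and from 0.860 (mt-Nd2) to 1.25 (mt-Nd6) in the vehicle library. The mitochondrial proteins encoded in the nucleus, whose mRNAs are made outside the mitochondria, were little higher: respiratory chain subunits had ratios of 1.43 (1.36 to 1.5) and 1.72 (1.65 to 1.80), with 3 of 34 genes (Cox6a1, Cox7a2 and Cox8a) higher by 2-fold or more in both libraries, and import and matrix proteins 1.00 (0.906 to 1.10) and 1.07 (0.974 to 1.18) with none of 15. Ribosomal protein genes had ratios of 1.46 (1.41 to 1.51) and 1.77 (1.71 to 1.82), with 1 of 31, Rps21, higher by 2-fold or more in both, and glycolytic enzymes 1.42 (1.33 to 1.52) and 1.82 (1.71 to 1.94), with 1 of 13, Aldoc. Pump, calmodulin and kinase genes of neurons had 1.44 (1.33 to 1.56) and 1.68 (1.57 to 1.81), with 1 of 8 genes higher by 2-fold or more in both. Over all genes tested, the share higher by 2-fold or more in both libraries was 1.5%. Immediate early genes, which dissociation can induce, had 1.07 (0.936 to 1.21) and 1.12 (0.994 to 1.26).

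Nuclear RNA common to all cells was not depleted as a whole. Malat1, Neat1 and Kcnq1ot1 together had ratios of 1.94 (1.86 to 2.03) in the FGF21 and 1.61 (1.54 to 1.69) in the vehicle library. Malat1 was at 10427 CPM in mitochondria-rich and 5332 CPM in comparison barcodes of the FGF21 library and at 8160.4 and 5052 CPM of the vehicle library.

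By the naming rule, the 12 genes highest in mitochondria-rich barcodes of both libraries were Bc1, Camk2a, Kif5a, Camk2n1, Gap43, Kif5b, Cpe, Chd3, Ndrg2, Map1a, Gstm1 and Selenow. Bc1, Camk2a, Kif5a, Gap43 and Map1a are neuronal genes, whereas Ndrg2, a cytosolic protein of astrocytes, and Gstm1, a glutathione transferase found in astrocytes, are mainly glial. Ndrg2 was at 1982 against 580.3 CPM in the FGF21 and 1928 against 364 CPM in the vehicle library, ratios of 3.41 (3.07 to 3.79) and 5.30 (4.78 to 5.87). Gstm1 had ratios of 3.03 (2.48 to 3.66) and 6.32 (5.30 to 7.50), Selenow, a small selenoprotein, 2.97 (2.63 to 3.34) and 5.22 (4.70 to 5.78), and Chd3, a chromatin remodeller, 3.56 (2.67 to 4.65) and 5.32 (4.21 to 6.66). The 12 lowest, by the same rule, were Copb1, Elf1, Gtf2h2, Hpgd, Lhfpl3, M6pr, P2ry12, P4hb, Rnf130, Sft2d1, Siglech and Txnip. They include genes of the secretory pathway: P4hb, a protein disulfide isomerase of the endoplasmic reticulum, had ratios of 0.309 (0.159 to 0.540) and 0.370 (0.219 to 0.586), Copb1, a coat protein of Golgi vesicles, 0.239 (0.0774 to 0.558) and 0.399 (0.206 to 0.700), and M6pr, a receptor that sorts lysosomal enzymes, 0.346 (0.172 to 0.620) and 0.288 (0.153 to 0.493). Lhfpl3, a marker of oligodendrocyte precursors, had 0.312 (0.229 to 0.416) and 0.292 (0.201 to 0.411).

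Further genes with high ratios had under 10 expected UMIs in the FGF21 library, and they were picked after their values were seen. Lrrc17, a secreted leucine-rich repeat protein, had 168 UMIs in mitochondria-rich and 127 in comparison barcodes of the FGF21 and 474 and 103 of the vehicle library, ratios of 95.4 (75.3 to 121) and 215 (173 to 268). Sez6, a membrane protein of dendrites and spines, had 107 and 279 UMIs in mitochondria-rich barcodes and ratios of 14.8 (11.9 to 18.3) and 51.0 (42.9 to 60.7), and Tatdn1, a DNase family member, 112 and 276 UMIs and ratios of 19.9 (16.0 to 24.6) and 44.5 (37.6 to 52.7).

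Between the treatments, mitochondria-rich barcodes of the FGF21 library held less dendritic RNA than those of the vehicle library, and with 1 pooled library each the treatment and the library cannot be told apart. Bc1 was at 13859.9 CPM in FGF21 and 29429.8 CPM in vehicle mitochondria-rich barcodes, a ratio of 0.471 (0.450 to 0.493), while comparison barcodes had 95.0 and 96.7 CPM. No FGF21 barcode but 40 vehicle mitochondria-rich barcodes had over 50 Bc1 UMIs. The rest of the dendritic list was at 7645 and 9482 CPM (ratio 0.806, 0.753 to 0.863), Camk2a at 1640.5 and 2227 CPM (0.737, 0.636 to 0.853) and Ddn at 406 and 663 CPM (0.613, 0.457 to 0.816). The transported myelin messages differed more, with Mbp at 1624 and 4444 CPM (0.365, 0.320 to 0.417) in mitochondria-rich barcodes, whereas in comparison barcodes Mbp had a ratio of 1.37 (1.32 to 1.43). The presynaptic list did not differ beyond counting error, at 2279 and 2227 CPM (1.02, 0.896 to 1.17), nor did respiratory chain genes (0.968, 0.908 to 1.03) or ribosomal protein genes (0.982, 0.940 to 1.03). Mt1, a zinc-binding metallothionein, was at 1814 and 868 CPM (2.09, 1.74 to 2.51), and comparison barcodes had 746 and 249.5 CPM (2.99, 2.86 to 3.13).

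The transcript of the sorted reporter was rare in mitochondria-rich barcodes. The tdTomato column had 14 UMIs in mitochondria-rich barcodes of the FGF21 and 28 of the vehicle library, 75.8 and 131 CPM, against 80.2 and 73.6 CPM in comparison barcodes, ratios of 0.945 (0.515 to 1.59) and 1.78 (1.17 to 2.59). Thinned to 200 UMIs, 1.44% (0.468 to 3.32) of FGF21 and 1.42% (0.388 to 3.59) of vehicle mitochondria-rich barcodes had a reporter UMI, against 1.01% and 0.569% of microglia-like barcodes; unthinned, 2.76% and 5.04% did. Klb had 0 UMIs in mitochondria-rich barcodes of both libraries, which allows a level of up to 16.2 CPM in the FGF21 and 14.0 CPM in the vehicle library, taking 3 counts as the floor. Comparison barcodes had only 0 Klb UMIs in the FGF21 and 3 in the vehicle library, so its absence was not particular to mitochondria-rich barcodes.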

How the data were processed

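Single-cell RNA-seq of 1 FGF21 and 1 vehicle library was read from tables of raw UMI counts per barcode and gene. Per the file headers, the authors made these counts with the BD WTA Rhapsody Analysis Pipeline 1.9.1, with a tdTomato sequence added to the reference. The deposited tables are named as RSEC molecules, the pipeline's error-corrected UMIs. The genome was GRCm38, per the submitters' processing notes. No source used here gives the annotation or the cell calling. The tables had 23102 (FGF21) and 23139 (vehicle) gene columns, 21121 of them shared and 25120 in all, and a gene without a column was taken as 0 UMIs.

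UMIs were summed over barcodes for each library and divided by the UMIs outside mitochondrial and haemoglobin genes. Shares were compared at 200 UMIs drawn without replacement from each barcode. Values of some listed genes are not reported here. The barcodes and gene lists were chosen with earlier results of these data known. The genes named were the label's markers, all dendritic RNAs, the 4 members of each other list with most UMIs, and the 12 highest and 12 lowest genes. The last were ranked by the smaller log2 ratio of both libraries among genes 2-fold apart in both, with 10 or more expected UMIs and at most 20% of UMIs in 1 barcode, which left out 75 genes. Comparison barcodes were clustered in scanpy 1.11.5 (2000 variable genes, 30 components, 15 neighbours, Leiden resolution 1.0) after removal of 33 doublets called by Scrublet (16 FGF21 and 17 vehicle, 0.767%). Doublets were removed for the clustering only. A cluster was named where its marker score led by 0.5 and 3 or more markers were found in 10% of its barcodes, a rule set after the clusters were seen. Mitochondria-rich barcodes were clustered with 20 components at resolution 0.5. Python 3.11.15, numpy 2.4.6, scipy 1.17.1, pandas 2.3.3 and matplotlib 3.10.9 were used, and the ratio and interval code was tested on simulated data. Alternatives changed the mitochondrial threshold, a depth filter, the weighting, the denominator, the comparison barcodes, the UMI filter and the list. The Bc1 sequence and gene positions came from GENCODE vM21 of GRCm38.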

Additional observations from a re-analysis of the deposited data

Results flagged for a closer look

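Marker lists of other cell types stood on opposite sides of 1 in the FGF21 and vehicle libraries when mitochondria-rich barcodes were set against comparison barcodes. The difference between the libraries was not tested. Choroid plexus markers had a ratio of 6.14 in the FGF21 and 0.826 in the vehicle library. In the FGF21 library 84.1% of the choroid UMIs lay in 1 mitochondria-rich barcode, which had 7892 UMIs, 30.3% of them mitochondrial. Border macrophage markers had ratios of 1.67 and 0.538 from 20 and 21 UMIs, 55% of the FGF21 ones in 1 barcode. Oligodendrocyte markers other than Mbp and Mobp had ratios of 0.929 (0.874 to 0.987) and 1.39 (1.31 to 1.48). In these 3 lists the intervals of both libraries lay clear of 1. Endothelial (2.14, 1.70 to 2.66, and 0.820, 0.605 to 1.09), fibroblast (1.47, 0.851 to 2.37, and 0.450, 0.251 to 0.744) and leukocyte markers (1.83, 0.871 to 3.40, and 0.105, 0.00266 to 0.590) also had ratios on opposite sides of 1, with an interval that took in 1 in 1 library each.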

How the results depend on the processing

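Of the values under alternatives, 46 moved less than their counting interval or 1.5 times, 49 moved further and 1 reversed. The dendritic ratio stayed above 1 under every alternative run, and none of these left out all of the label's genes. Values are for the FGF21 and then the vehicle library where 2 are given. With mitochondria-rich barcodes over 40% mitochondrial, the dendritic ratio was 12.1 and 39.9, the dendritic share 75.7% in the FGF21 library, the number of genes higher by 2-fold or more 49 and 131, and that of lower genes 173 in the FGF21 library. With those of 500 or more UMIs and 300 or more genes, the ratio was 12.9 and 38.2 and the FGF21 share 76.3%. With barcodes weighted equally, the ratio was 17.0 and 30.8, the vehicle share 83.2% and the vehicle higher genes 328. With all UMIs as the denominator, the dendritic ratio was 9.18 and 20.9, the cell body ratio 0.869 and 1.96 (below 1 in the FGF21 library), the higher genes 11 and 47 and the lower genes 2296 and 2681; this denominator includes the mitochondrial UMIs by which barcodes were chosen. Against microglia-like barcodes alone, the dendritic ratio was 25.6 and 55.1, the cell body ratio 3.07 and 6.18, the higher genes 332 and 351 and the FGF21 lower genes 785. Without the 5 mitochondria-rich barcodes richest in dendritic UMIs, the vehicle ratio was 33.9. With 50 or more expected UMIs, 26 and 38 genes were higher and 29 and 84 lower, and without a filter 2006 and 2575 and 11248 and 10828, fewer or more genes being compared. The next settings were chosen after seeing the data. Against comparison barcodes of 500 to 1500 UMIs, the dendritic ratio was 4.20 and 25.0, the vehicle cell body ratio 2.04 and the higher genes 766 and 696. Without Bc1, the dendritic ratio was 6.16 and 9.54 and the share 56.4 and 56.7%. With the presynaptic, axon and receptor lists added to its denominator, the share was 64.3 and 74.7%, and also without Bc1 39.1 and 41.8%. The cause of each move was otherwise not tested.

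No paired analysis was possible because each treatment had 1 library. Leaving out a replicate was likewise not possible. The shallow depth of the mitochondria-rich barcodes limits the list to its abundant genes, 8 of the 18 dendritic RNAs having under 10 expected UMIs in at least 1 library.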
